A study of Saccharomyces cerevisiae with 24 samples.

Results

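BC187 is a vineyard strain of Saccharomyces cerevisiae. The 6 BC187 libraries of a 24-library series were compared across all 4871 rows of the deposited barcode table, to ask which overexpressed genes rose or fell after growth in salt. Each row is a plasmid of the MoBY 2.0 collection, a pooled library in which 1 S288C gene (the laboratory reference strain), between its native flanking sequences, sits on a high-copy 2-micron plasmid beside a DNA barcode. The 3 generation 10 libraries came from library-transformed BC187 grown for 10 generations in rich medium (YPD) with 0.7 M NaCl and 200 mg/L G418, the drug that selects for the plasmid, and the 3 generation 0 libraries from aliquots taken before that growth. All cells, those of generation 0 included, carried the plasmid library on top of the normal chromosomal genes. The series holds no competition without NaCl. Effects of salt and of 10 generations in YPD with G418 therefore cannot be told apart here. The study describes a cluster of genes, enriched for translation and protein folding, that were costly both with and without NaCl. The series holds the same samples for the laboratory diploid BY4743, which carries auxotrophic alleles of HIS3, LEU2, LYS2, MET15 and URA3 and is used for comparison, and for the strains NCYC3290 and YPS128. The study describes the replicates as biological, the copied genes are S288C alleles and not those of BC187, and BY4743 is described as carrying more plasmid copies per haploid genome than BC187.

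High salt puts yeast under osmotic stress and under ionic stress. Water loss activates the HOG kinase pathway, which drives glycerol synthesis, while sodium is kept low by export at the plasma membrane, by storage in the vacuole and by potassium uptake through Trk1 and Trk2. Salt also raises cytosolic calcium, which acts through calmodulin on the phosphatase calcineurin, and calcineurin lets the transcription factor Crz1 enter the nucleus. In a pooled competition a barcode that gains share marks a plasmid whose carriers outgrew the pool or that was kept at a higher copy number. A barcode that loses share marks a plasmid whose carriers grew more slowly or that was kept at a lower copy number. Barcode reads alone cannot tell growth and copy number apart, nor effects of the plasmid from other traits of the transformed cells. The competitions started from thawed pools of transformed cells, and the study does not say whether replicates came from separate transformations. The spread between replicates therefore need not cover differences between transformed cells that carry the same plasmid.

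The genes whose plasmids gained the most were led by regulators of calcium and potassium balance. Upstream regions are shown for CRZ1, HAL5, ECM27 and CMK2, because the plasmids carry native promoters. These genes were selected from among the largest rises, and whether they rose for a shared reason was not tested. URA5 and SAT4 are not shown, although their log2 fold changes in BC187 (4.08 and 3.59) were above that of CMK2 (3.57). Each line gives 300 bases of the S288C assembly R64 (RefSeq), from 250 bases before the start codon to 50 bases from it on, 5′ to 3′ along the gene. Capitals mark the start codon ATG and any match to GNGGCTCA or GNGGCGCA, forms of the calcineurin-dependent response element bound by Crz1, or to AGGGG, the stress response element, on either strand. The windows lie at chrXIV:579330-579629 (plus strand) for CRZ1, chrX:109412-109711 (minus strand) for HAL5, chrX:624588-624887 (plus strand) for ECM27 and chrXV:296071-296370 (minus strand) for CMK2.
CRZ1: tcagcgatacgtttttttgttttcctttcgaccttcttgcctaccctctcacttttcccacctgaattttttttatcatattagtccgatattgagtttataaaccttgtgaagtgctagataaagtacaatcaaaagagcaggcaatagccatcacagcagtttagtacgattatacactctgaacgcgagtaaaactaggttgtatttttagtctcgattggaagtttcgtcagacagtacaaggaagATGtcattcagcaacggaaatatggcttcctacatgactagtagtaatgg
HAL5: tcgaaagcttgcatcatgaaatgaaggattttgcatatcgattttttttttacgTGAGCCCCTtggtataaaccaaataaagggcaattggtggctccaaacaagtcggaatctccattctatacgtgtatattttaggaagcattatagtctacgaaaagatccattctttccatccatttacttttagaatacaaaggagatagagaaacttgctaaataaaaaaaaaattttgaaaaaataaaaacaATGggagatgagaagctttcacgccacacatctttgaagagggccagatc
ECM27: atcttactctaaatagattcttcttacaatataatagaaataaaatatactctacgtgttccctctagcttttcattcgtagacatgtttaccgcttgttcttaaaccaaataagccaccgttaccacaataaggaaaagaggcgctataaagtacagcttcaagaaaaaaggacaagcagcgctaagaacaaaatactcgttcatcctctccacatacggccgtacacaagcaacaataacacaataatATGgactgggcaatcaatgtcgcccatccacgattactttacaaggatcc
CMK2: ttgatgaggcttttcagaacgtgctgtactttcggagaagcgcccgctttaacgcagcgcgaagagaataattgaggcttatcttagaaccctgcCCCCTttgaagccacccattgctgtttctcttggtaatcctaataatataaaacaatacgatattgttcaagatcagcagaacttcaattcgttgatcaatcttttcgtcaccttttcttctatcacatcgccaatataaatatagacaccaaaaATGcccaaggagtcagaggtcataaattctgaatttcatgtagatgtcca

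HAL5 held a match to GNGGCTCA on the reverse strand that began 196 bases before the start codon and overlapped a stress response element, and CMK2 held a stress response element. No match to any of these motifs was found in the windows of CRZ1 and ECM27. Over 4120 windows read for tested genes, 2.01% held either form of the calcineurin-dependent element and 21.7% a stress response element. Among the 90 genes that rose at least 2-fold in BC187 the shares were 2.22% and 21.1%, and among the 698 windows of genes that fell at least 2-fold they were 2.15% and 22.5%. These shares lay close together, and a match is a description of letters, not of binding.

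Sequencing depth differed by about 2-fold. Reads per library were 18339227, 14476676 and 14593361 at generation 10 and 10473149, 21314714 and 20677509 at generation 0, and values below are reads per 1000000 reads of the library, leaving out of that total 25 rows that exceeded 50000 reads in some sample of the series (normalised reads). The 10 most abundant rows took 4.24% ± 0.206 of the reads at generation 10 and 1.16% ± 0.0451 at generation 0 (SD, n = 3 each), and 694 ± 8.54 against 627 ± 7 rows had no read. The effective number of rows, the count of equally abundant rows that would give the same diversity, was 2682 ± 42.9 at generation 10 and 3313 ± 50 at generation 0. The groups did not overlap in any of these measures, for each of which the two-sided exact permutation test gave p = 0.1, the smallest that 3 against 3 libraries allows. Of the 4871 rows, 601 had no read in any BC187 library, and 4166 passed the filter on low counts and were tested. The other 705 rows have no result.

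Of the tested rows, 28.5% were called higher and 38.1% lower at generation 10, and changes of at least 2-fold were 2.16% higher (90 rows) and 16.8% lower (701 rows) by edgeR at a false discovery rate (FDR) under 0.05. Gains were mostly small and losses ran deep. Called gains had a median log2 fold change of 0.34 and called losses of -0.87, against a median of -0.05 over all tested rows. At 4-fold 19 rows rose and 345 fell, at 8-fold 9 and 190, and at 16-fold 4 and 124. Generation 10 values lay entirely above the generation 0 values in 1304 rows (31.3%) and entirely below in 1698 (40.8%), and 2733 of the 2778 calls were separated in this way. Scores of the 3 generation 10 libraries, in log2 over the mean of the generation 0 libraries, correlated across genes with r between 0.97 and 0.977. All 3 share that mean, which by itself raises r, and genes are not independent replicates. A fit of all 24 libraries, which shares 1 estimate of spread with the more variable NCYC3290 and YPS128 libraries (biological coefficient of variation 0.855 and 0.539, against 0.11 in BC187), called only 48 rows higher and 334 lower.

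**Figure D1:**
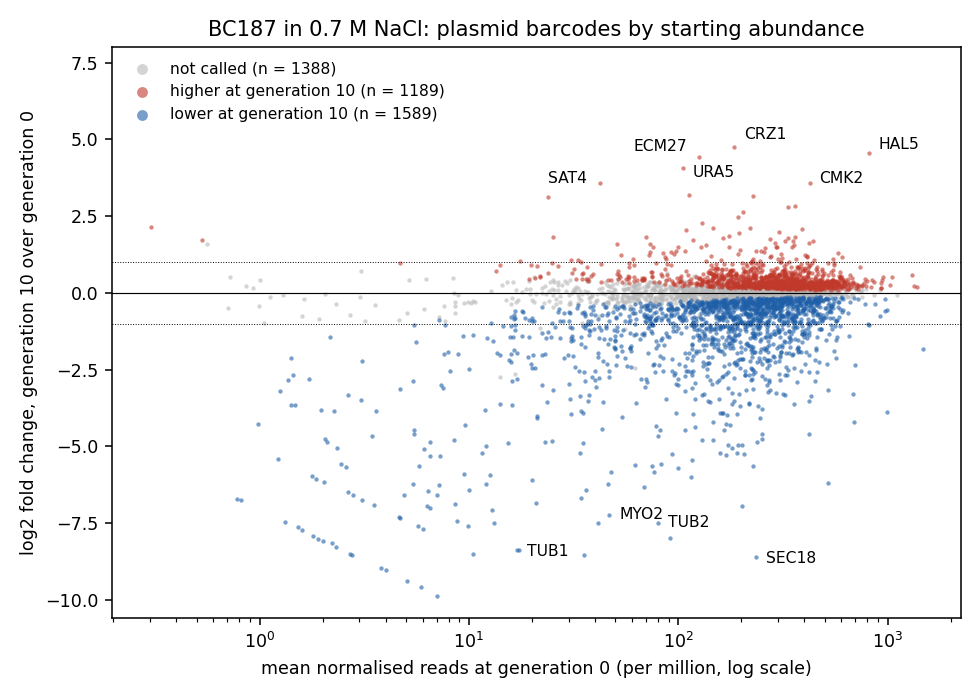
Each point is a tested row of BC187. The x axis gives mean normalised reads of the 3 generation 0 libraries on a log scale and the y axis the fitted log2 fold change of generation 10 over generation 0, with dotted lines at a 2-fold change and colours for calls at an FDR under 0.05. Losses reach much further from 0 than gains, and the diagonal streaks at low abundance are rows with few or no reads left at generation 10, whose fitted values are not bounds.

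CRZ1, the calcineurin-activated transcription factor, had 4421, 5550 and 4998 normalised reads at generation 10, against 199, 186 and 172 at generation 0. All generation 10 libraries were far above all generation 0 libraries, a 27.0-fold rise (log2 4.75 ± 0.11 SE, FDR 1.74e-08). HAL5, a kinase that stabilises nutrient and potassium transporters, had 17171, 19452 and 20212 normalised reads, against 856, 761 and 813. It was already abundant at the start and became the highest of the named rows in every generation 10 library, 23.4-fold up (log2 4.55 ± 0.10, FDR 1.74e-08). ECM27, a membrane protein linked to calcium homeostasis, had 2742, 2526 and 2822 normalised reads, against 130, 121 and 129, a 21.3-fold rise with little spread in either group (log2 4.42 ± 0.07, FDR 6.25e-09).

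CMK2, a calmodulin-dependent kinase that feeds back on calcium signalling, had 4682, 5019 and 5385 normalised reads at generation 10, against 438, 422 and 408 at generation 0. The groups were tight and wide apart, with a log2 fold change of 3.57 ± 0.07 (FDR 1.74e-08). SAT4 (also called HAL4), the kinase closest in role to Hal5, had 461, 879 and 234 normalised reads, against 14.4, 21.1 and 91.3. It rose in log2 terms by 3.59 ± 0.72 (FDR 0.00223), but its generation 0 libraries differed widely and replicate 3 stood above the others. Without that library the log2 fold change was 4.84. SIS2 (HAL3), an inhibitor of the phosphatase Ppz1 that limits potassium uptake, had 701, 1242 and 1151 normalised reads, against 114, 117 and 109, a 9.11-fold rise.

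The other large gains were of mixed function. URA5, which makes orotidine monophosphate in pyrimidine synthesis, had 1229, 2259 and 1845 normalised reads at generation 10, against 102, 106 and 107, a 16.9-fold rise. TPO1, a polyamine exporter, had 200, 205 and 221 against 21.3, 24 and 26.4. Both were separated without overlap, TPO1 with little spread in either group. PIN4, an RNA-binding protein of the G2/M transition, rose 9.03-fold, the Golgi protein of unknown function YKL063C 7.09-fold, the telobox-binding regulator TBF1 7-fold and the chromatin protein NHP6A 6.21-fold. In each of these 4 the FDR was at most 8.89e-07.

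**Figure D2:**
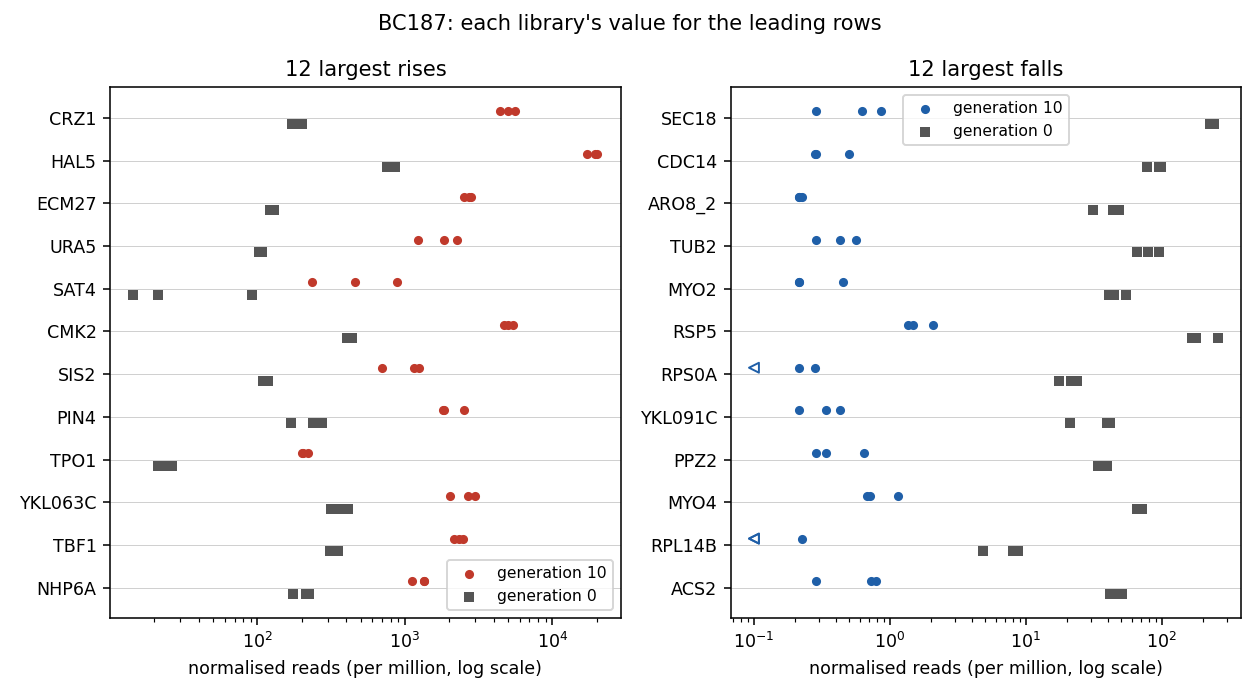
Normalised reads of each BC187 library (log scale) for the 12 largest rises (left) and the 12 largest falls among rows that kept over 3 reads in some generation 10 library (right), with round points for generation 10 and squares for generation 0. Open triangles mark libraries with 0 reads, drawn at 0.1 because a log axis has no 0. Rows were chosen so that the 2 groups of points do not overlap. SAT4 has the widest spread among the rises.

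The genes that calcineurin and calmodulin signalling is built from did not move as 1 block. Of 8 tested rows 3 were higher (37.5%) and 2 lower (25%), against 28.5% and 38.1% of all tested rows, with a median log2 fold change of 0.13. Beside CRZ1 and CMK2 the third gain was small, RCN1 at 0.17, and the FDR of RCN1 rose above 0.05 when any 1 of 4 libraries was left out. CMP2, a catalytic subunit of calcineurin, had 59.1, 58.7 and 65.5 normalised reads at generation 10, against 223, 267 and 200, and RCN2, a calcineurin regulator, 43.8, 59.7 and 36.1, against 143, 140 and 166. Both fell without overlap, at log2 -1.91 and -1.68. The regulatory subunit CNB1 had a log2 fold change of 0.10 (FDR 0.425).

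Calcium transporters went both ways. Of 10 tested rows 4 were higher (40%) and 5 lower (50%), against 28.5% and 38.1% of all tested rows. The median was -0.53, and 2 of the lower rows were of YVC1. Beside ECM27 the rises were FIG1 and MID1, parts of plasma membrane calcium uptake, and ECM7, a regulator of it, at log2 0.67, 0.45 and 0.37. The vacuolar calcium pump PMC1 had 121, 114 and 137 normalised reads at generation 10, against 302, 307 and 290, and the Golgi pump PMR1 fell by log2 1.01. Both rows of the vacuolar channel YVC1 fell, by 1.23 and 1.41. The vacuolar exchanger VCX1, with 176, 179 and 185 normalised reads against 194, 185 and 180, was not called (log2 -0.05 ± 0.06). CSG2, needed for calcium tolerance and sphingolipid synthesis, kept 1 read in the 3 generation 10 libraries together, against 307 reads at generation 0, a 268-fold fall with a 95% counting interval of 47.8 to 10638.

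Kinases related to Hal5 split in both directions. All 7 tested rows were called, 4 higher (57.1%) and 3 lower (42.9%), against 28.5% and 38.1% of all tested rows. PRR2 had 373, 470 and 455 normalised reads at generation 10, against 242, 236 and 255, and rose by log2 0.83, while PRR1 rose by 0.23. NPR1, a kinase that protects ammonium and amino acid permeases, had 49.9, 57.4 and 50.8, against 159, 188 and 198. PTK2, an activator of the plasma membrane proton pump, had 1 read left, against 179, a 157-fold fall (counting interval 27.7 to 6217).

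Phosphatases opposed by Sis2 behaved in the other direction from SIS2 itself. PPZ1 had 1.87, 1.08 and 2.22 normalised reads at generation 10, against 71.9, 87.5 and 89.7, and PPZ2 0.339, 0.649 and 0.286, against 33.8, 35.7 and 39.4. Both were close to lost from every generation 10 library, at log2 -5.58 ± 0.25 and -6.41 ± 0.29. Among 12 tested rows of other halotolerance regulators 4 were higher (33.3%) and 7 lower (58.3%), against 28.5% and 38.1% of all tested rows. Casein kinase 2, built of catalytic (CKA) and regulatory (CKB) subunits, was mixed. CKA1 (994, 889 and 941 against 452, 412 and 373) rose by log2 1.19 and CKB2 by 0.69, CKA2 fell by 0.79 and CKB1 was not called (0.14).

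Of 9 tested rows of sodium, potassium and proton transporters 3 were higher and 3 lower (33.3% each, against 28.5% and 38.1% of all tested rows). PMA1, the plasma membrane proton pump, had 6.90, 3.53 and 5.15 normalised reads at generation 10, against 131, 156 and 151 at generation 0, so that every generation 10 library had lost most of it (log2 -4.80 ± 0.23). NHA1, the sodium and potassium antiporter of the plasma membrane, fell by 1.88. PMP2, a small regulator of Pma1, rose by 0.96, and the drug and cation exporters QDR3 and QDR1 rose by 0.60 and 0.21, the last at an FDR of 0.0475 that exceeded 0.05 in 5 of the 6 fits that left out 1 library. QDR2 had 154, 174 and 171 against 120, 151 and 201, which overlap (0.08, FDR 0.7), and the diacylglycerol kinase DGK1 was not called either (-0.04, FDR 0.58).

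In the HOG pathway 4 of 16 tested rows were higher (25%) and 7 lower (43.8%), shares close to the 28.5% and 38.1% of all tested rows. HOG1, its terminal kinase, had 122, 144 and 137 normalised reads at generation 10, against 243, 235 and 234, a fall of log2 0.82 ± 0.08. Its activator PBS2 had 33.2, 26.6 and 27.1 against 90, 115 and 132, and the upstream kinase STE20 22.2, 18.3 and 17.4 against 106, 103 and 137. The exception of size was RCK2, a kinase that Hog1 activates, with 362, 439 and 369 against 89.3, 124 and 139 (log2 1.73 ± 0.15).

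Of 7 tested rows of transcription factors of the osmotic response 5 were lower (71.4%) and 0 higher, against 38.1% and 28.5% of all tested rows. MSN2, a factor that binds the stress response element, had 31.7, 31.7 and 32.6 normalised reads at generation 10, against 160, 179 and 161, while its partner MSN4 fell by log2 0.48. TUP1, a general co-repressor, had 1 read left against 260, a 227-fold fall (counting interval 40.4 to 9014). Glycerol genes stood at 4 higher (28.6%) and 6 lower (42.9%) of 14, close to the shares of all tested rows. GPP2 (137, 132 and 139 against 625, 759 and 704) and GPD1 (20, 12 and 14 against 76, 77.3 and 75.2), enzymes of glycerol synthesis, fell by 2.35 and 2.31, whereas STL1, the glycerol importer, rose by 0.37 and the glycerol channel FPS1 was not called.

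SEC18, the ATPase that takes SNARE complexes apart in membrane fusion, lost the most among rows that still had over 3 reads in some generation 10 library. It had 0.622, 0.865 and 0.286 normalised reads at generation 10, against 235, 228 and 242 at generation 0, a 391-fold fall (log2 -8.61 ± 0.21, FDR 2.76e-08). CDC14, the phosphatase of mitotic exit, had 0.283, 0.288 and 0.5 against 78.4, 95.1 and 98.7. RSP5, an essential ubiquitin ligase, had 1.47, 1.37 and 2.07 against 167, 179 and 259. In all of them every generation 10 library was near 0 while the generation 0 libraries had ample reads. ACS2, an acetyl-CoA synthetase, fell 74.8-fold. YKL091C, a putative phospholipid transfer protein, fell 102-fold.

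Several cytoskeletal genes fell deeply. Of 23 tested microtubule rows 6 were higher (26.1%) and 11 lower (47.8%), against 28.5% and 38.1% of all tested rows. Their median was -0.12, and 9 of the losses were at least 2-fold, where 16.8% of all tested rows fell that far. Both rows of KAR3 are among these 9, at log2 -4.77 and -1.04, the first from a mean of 2.05 normalised reads at generation 0. PAC2 and BIM1 also have both their rows in the list. TUB2, the only beta-tubulin, had 0.566, 0.432 and 0.286 normalised reads at generation 10, against 66, 78.7 and 95, and TUB1, the major alpha-tubulin, 2 reads in all against 914 at generation 0, a 400-fold fall (counting interval 110 to 3305). TUB3, the minor alpha-tubulin, had 34.6, 44.7 and 35.4 against 164, 194 and 193 and fell by only 2.27. The motor KIP1 fell by 5.27. Among 16 actin rows 3 were higher (18.8%) and 8 lower (50%), 6 of them by at least 2-fold. MYO2 and MYO4, motors that carry cargo along actin, fell, at log2 -7.23 and -6.33, as did the actin-binding protein ABP1 at -5.21 and profilin (PFY1) at -3.69.

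Chaperones had the lowest median of any list but the 14-3-3 genes, -1.23, with 2 of 21 tested rows higher (9.52%) and 15 lower (71.4%). Over all tested rows the shares were 28.5% and 38.1%. The Hsp70 genes SSA1 (4.41, 6.34 and 3.36 against 123, 132 and 132), SSA2 (2.32, 0.865 and 1.21 against 63.2, 74.4 and 87.6) and SSB1 (10.9, 9.51 and 5.72 against 161, 172 and 172) were depleted in every generation 10 library. The Hsp40 SIS1 fell by 4.31 and the Hsp110 SSE1 by 3.27. The rises, HSP26 at 0.31 and HSP82 at 0.16, were small, and the FDR of HSP82 exceeded 0.05 when any 1 of 4 libraries was left out.

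Genes of translation fell more often than the background of 38.1% and rose less often than that of 28.5%. Among translation factors 18 of 29 were lower (62.1%) and 5 higher (17.2%), with a median of -0.93. Among large ribosomal subunit genes 45 of 66 were lower (68.2%) and 12 higher (18.2%), with a median of -0.64. Among small subunit genes 35 of 51 were lower (68.6%) and 8 higher (15.7%), with a median of -0.56. TEF2, an elongation factor 1A gene, had 0.848, 0.576 and 1.07 normalised reads at generation 10, against 44.1, 49.6 and 49.4, and the elongation factor YEF3 fell by 4.45. RPP0, the stalk protein of the large subunit, had 1.75, 1.15 and 0.858 against 55, 63.7 and 68.2. Paralogues could differ widely: RPS0A had 0.283, 0.216 and 0 against 17.5, 23.7 and 21.5, while RPS0B had 165, 154 and 92.3 against 95.9, 104 and 137 (log2 0.29, FDR 0.281). RPL14B kept 4 reads in 1 generation 10 library and none in the others, while RPL14A rose by 0.50. RPS1B and RPL16B rose by 1.18 and 1.04. The tRNA methyltransferase subunit GCD10 (162, 171 and 180 against 72.3, 74.1 and 70) rose by 1.25.

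Mitochondrial ribosome genes showed the reverse balance. Of 56 tested rows 25 were higher (44.6%) and 6 lower (10.7%), with a median of 0.12. Over all tested rows the shares were 28.5% and 38.1%. MRPL40 rose by 0.98 and MRPL10 fell by 0.92. ATP synthase genes had 4 of 14 higher (28.6%), close to the share of all tested rows, and 1 lower (7.14%). Mannan synthesis genes had 7 of 14 higher (50%) and 2 lower (14.3%). The mannan list had the highest median of the 34 (0.30) and was led by VAN1, a Golgi mannosyltransferase (621, 803 and 464 against 139, 163 and 220, log2 1.85).

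mRNA-binding and decay proteins moved strongly both ways, with 17 of 47 tested rows higher, 17 lower and a median of -0.04. Each of these shares was 36.2%, against 28.5% higher and 38.1% lower over all tested rows. DHH1, a helicase of decapping, had 555, 718 and 641 normalised reads at generation 10, against 131, 154 and 156. The decapping activator EDC3 (log2 1.68), the Pumilio proteins PUF4 (1.80) and PUF3 (1.48) and the poly(A)-binding protein PAB1 (1.49) also rose. Of the 47 rows 8 rose at least 2-fold and 10 fell that far, where 2.16% and 16.8% of all tested rows did. The rows of CCR4 count on both sides, at 1.56 and -5.42. The list was chosen with earlier results of these data known, so these counts are a description only. NPL3, an mRNA export factor, had 2.15, 1.44 and 1.72 against 104, 122 and 118, and the Pumilio protein MPT5 6.39, 6.34 and 6.65 against 80.4, 95.6 and 117. The sign of this median changed with the scaling: it was 0.01 with trimmed-mean (TMM) factors.

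In the nuclear pore 21 of 26 tested rows were lower and 2 higher (median -0.84), in cell wall integrity 11 of 14 and 2 (-0.73), in the vacuolar proton ATPase 10 of 15 and 1 (-0.62), in vacuolar protein sorting 17 of 30 and 3 (-0.38), and in the Ras and protein kinase A pathway 8 of 13 and 4 (-0.57). In that order 80.8%, 78.6%, 66.7%, 56.7% and 61.5% were lower, against 38.1% of all tested rows. The shares higher were 7.69%, 14.3%, 6.67%, 10% and 30.8%, against 28.5%. VMA2, a subunit of the vacuolar ATPase, had 10.9, 13.9 and 12.9 against 92.5, 103 and 105. TPK2, a catalytic subunit of protein kinase A, had 8.77, 5.69 and 3.79 against 166, 218 and 197. In each named row the groups were far apart.

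In the other lists, lower and higher rows numbered 9 and 4 of 19 in cell-cycle control, 10 and 7 of 24 in ergosterol synthesis, 8 and 4 of 17 among histones and chromatin architecture, and 11 and 4 of 28 in the proteasome. They numbered 9 and 5 of 25 among RNA polymerase subunits, 5 and 2 of 12 in trehalose and glycogen, 4 and 2 of 11 among amino acid permeases, 4 and 7 of 13 in phospholipid synthesis control, and 2 and 3 of 11 in silencing. In these lists the share lower ran from 18.2% (silencing) to 47.4% (cell-cycle control), around the 38.1% of all tested rows. The share higher ran from 14.3% (proteasome) to 53.8% (phospholipid synthesis control), around 28.5%. HHT2, a histone H3 gene, fell by 3.30 (31.3, 32.6 and 32.5 against 315, 318 and 314), while SPT16, a subunit of the histone chaperone FACT, rose by 1.35. Acetate and ammonium transporters split 3 and 3 of 6: ATO2 had 799, 1060 and 1013 against 223, 243 and 193, and its relative ADY2 had 0 reads against 308, at least 89.8-fold lower against a floor of 3 reads over the group. The 14-3-3 genes also split, BMH2 rising by 0.60 and BMH1 having 0 reads against 387, at least 113-fold lower.

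**Figure D3:**
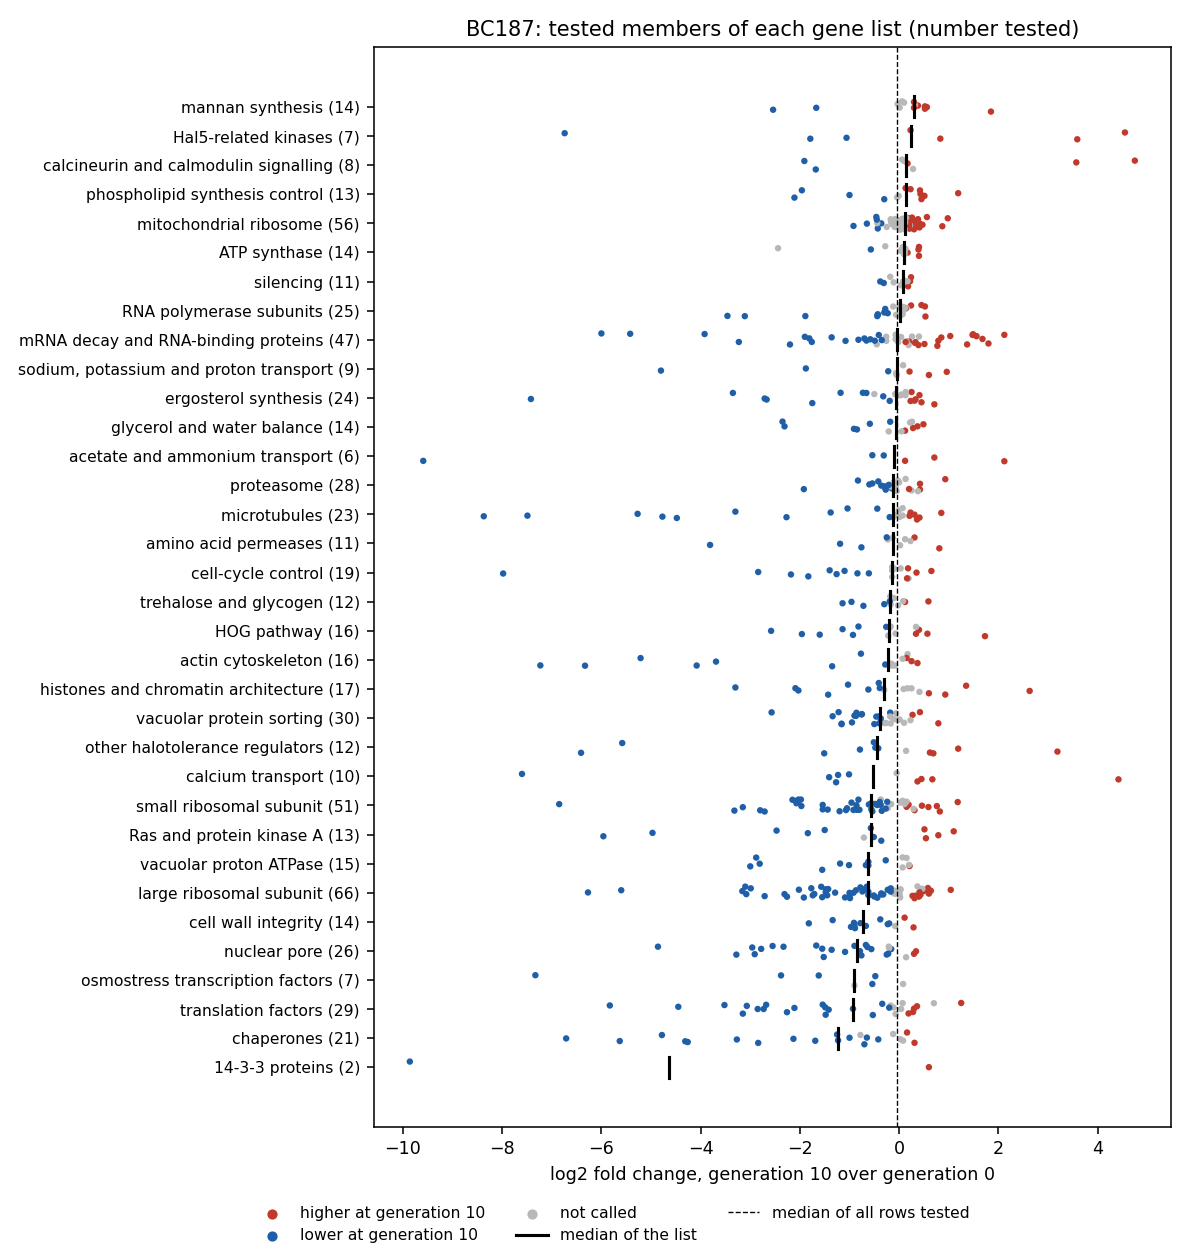
Log2 fold changes of the tested members of each of 34 gene lists in BC187, with red for rows called higher, blue for rows called lower and grey for rows not called. Black bars are list medians, the dashed line is the median of all tested rows (-0.05), and the number tested follows each name. Lists such as the chaperones and translation factors extend far to the left, whereas mitochondrial ribosome genes stay within 1 log2 unit of 0 with their median right of the dashed line.

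Among the rows called lower, 57 kept no more than 3 reads in any generation 10 library, and 17 of these had 0 reads in all 3. These rows were rare at the start, with a median of 3.51 normalised reads at generation 0, against 224 over all tested rows. Beside TUB1, the most abundant of them at the start were MLG1, a lysolipid acyltransferase gene (4 reads against 1943, a 425-fold fall, counting interval 166 to 1561), and GVP36, a Golgi vesicle protein, on its first row (2 against 958, 419-fold, 116 to 3464). MAC1, the copper-sensing transcription factor, had 3 reads against 715, GAS3, a glucanosyltransferase relative, 4 against 660, NPA3, a GTPase that brings RNA polymerase II into the nucleus, 7 against 649, and CTR86, an essential gene, 1 against 579. The paralogue of UGP1 YHL012W, the sterol transfer protein LAM1 and YKL222C had 5, 2 and 7 reads, against 547, 525 and 543. Reads were amplified by PCR, and the study describes no molecular identifiers. Intervals and floors cover counting error only. Libraries of 1 group differed by more than counting error, with a chi-square per degree of freedom over rows of 12.4 to 35.5 between pairs.

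Rows that fell furthest in BC187 were also scarcer in the BC187 starting pool than in that of BY4743. The 124 rows that fell at least 16-fold had a median of 12.8 normalised reads at generation 0 in BC187, against 95 in BY4743, and 108 of them (87.1%) were lower in BC187. Over all 4166 tested rows the medians were 224 and 228, and 49.6% were lower in BC187. Falls of 4 to 16-fold lay between, with a median log2 ratio of the starting levels of -0.38, against -1.85 for the deepest falls, -0.09 for falls of 2 to 4-fold and 0.01 over all rows. For rises of at least 2-fold the ratio was 0.08. The generation 0 libraries of BC187 enter both sides of this description, and how the pools came to differ was not tested.

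Longer genes lost share more often. Tested rows were divided by coding length into 5 bins of 832. In the shortest bin (78 to 621 bases) 42.5% of rows were called higher and 25.7% lower, and in the longest (1938 to 9279 bases) 10.6% and 66.5%. Median log2 fold changes ran through 0.12, 0.09, -0.02, -0.11 and -0.49 from the shortest to the longest bin. Spearman's rho between coding length and log2 fold change was -0.312 over 4160 rows and -0.314 over the 3964 rows with at least 20 normalised reads at generation 0, a description across genes. In the single generation 10 libraries rho was -0.295, -0.318 and -0.3 in BC187, against -0.472, -0.273 and -0.206 in BY4743, so that the BC187 libraries were alike and those of BY4743 were not. Long genes were also rarer at the start (rho -0.185), and rarer rows fell more: the share that fell at least 2-fold was 33.9% in the lowest of 5 bins of generation 0 reads and 7.68% in the highest. The parts of insert size, plasmid recovery and starting abundance in these relations were not tested. Shares of the gene lists, such as the nuclear pore and the mitochondrial ribosome, were set against all tested rows and not against rows of like length.

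**Figure D4:**
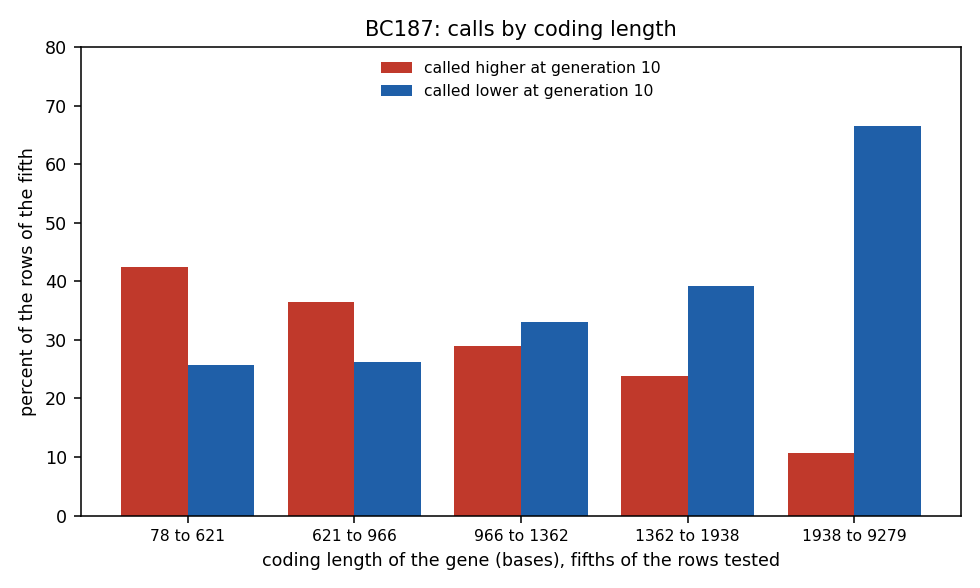
Percent of BC187 rows called higher (red) and lower (blue) at generation 10 in 5 bins of coding length, in bases, with 832 rows in each. The share called lower climbs to 66.5% in the longest bin while the share called higher drops to 10.6%.

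Position on the chromosomes carried little. Chromosome medians lay between -0.14 (chromosome XIII) and 0.10 (chromosome IX), and the log2 fold changes of adjacent genes had a Spearman's rho of 0.0206 over 2890 pairs, beside -0.0163, 0.0338, 0.0435 and -0.0036 at distances of 2 to 5 genes.

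Some genes have a pair of rows whose names differ only in a suffix. These are read here as separately barcoded plasmids of 1 gene, which the labels do not state. Both rows were tested for 41 of 54 such genes: 11 were called the same way on both, 5 in opposite directions, 18 on 1 row only and 7 on neither. Of all tested rows 28.5% were called higher and 38.1% lower, so unrelated rows can also share a call. Pairs were not set against unrelated rows. Only 54 of 4817 genes had more than 1 row, so most results rest on 1 row of a gene. Across pairs Pearson's r was 0.141 and Spearman's rho 0.271, and 0.574 and 0.351 over the 36 pairs in which both rows had at least 20 normalised reads at generation 0. MRC1, a replication checkpoint gene, fell on both rows by 0.76 and 0.66. CCR4, the main deadenylase, had 343, 469 and 394 against 142, 139 and 128 on its second row, which rose by 1.56, and 1 read against 68 on its first row, a 59.5-fold fall (counting interval 10.3 to 2383). RHO2, a small GTPase, had 493, 421 and 456 against 245, 222 and 231 on 1 row and 41.6, 33.9 and 29.4 against 61.6, 62.6 and 63.4 on the other. ARO8, an aromatic aminotransferase, fell on both rows but by 2.38 and 7.5. Rows of 1 gene thus differed in sign even where reads were ample on both.

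Set against BY4743 in 1 fit of 12 libraries, BC187 changes were more positive in 652 of 4205 rows (15.5%) and more negative in 1226 (29.2%). DESeq2 with its size factors gave 901 and 1093, which moved the share of more positive calls to 45.2%, against 34.7% by edgeR. Of the 90 rises of at least 2-fold in BC187, 85 were larger than in BY4743 by the test of the difference, and of the 701 falls of at least 2-fold 545 were deeper and 13 shallower. These rows were chosen by their BC187 change, and the same BC187 libraries enter the test. The choice itself therefore favours high counts, which do not measure how often the strains differ. Of 1187 rows higher in BC187 and tested in both strains, 377 (31.8%) were higher in BY4743 too, which is 49.5% of the 761 higher in BY4743. Of 1587 rows lower in BC187, 646 (40.7%) were lower in BY4743, which is 79.9% of the 809 lower there. Rows called in opposite directions numbered 61 with BC187 higher and 119 with BC187 lower. Copy number and starting pool differ between the strains together with genotype, and these cannot be told apart. The fit of all 24 libraries called 9 differences more positive and 43 more negative in BC187. Of the differences named below, those of CRZ1 (FDR 0.0662), TUB2 (FDR 1) and MYO2 (FDR 0.353) did not pass in it.

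CRZ1, HAL5, ECM27 and CMK2 rose in BY4743 too, but less. CRZ1 had a log2 fold change of 4.75 in BC187 and 1.26 in BY4743 (difference 3.50 ± 0.12, FDR 1.72e-09), HAL5 4.55 and 1.09, ECM27 4.42 and 1.01, and CMK2 3.57 and 0.86. NHP6A had 1342, 1344 and 1118 normalised reads at generation 10 in BC187, against 174, 214 and 224 at generation 0, while BY4743 had 112, 105 and 130, against 226, 236 and 206, so that the strains moved in opposite directions. Among the 6 largest rises SAT4 alone did not differ by the test: its difference of 1.29 ± 0.92 did not pass (FDR 0.276), and without generation 0 replicate 3 of BC187 it was 2.54 (FDR 0.0185). Both strains lost SEC18, at -8.61 in BC187 and -7.66 in BY4743 (difference -0.95 ± 0.66, FDR 0.262), and MYO4, at -6.33 and -6.21 (difference -0.12 ± 0.61, FDR 0.888). TUB2 and MYO2 fell less in BC187, by 7.49 and 7.23, than in BY4743, by 8.92 and 9.97, although for TUB2 the difference of 1.44 (FDR 0.0219) did not pass without generation 10 replicate 1 (1.16, FDR 0.136) or 2 (1.45, FDR 0.0545) of BC187.

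Other losses were found in BC187 without a call in BY4743. AMD1, the AMP deaminase, had 0.339, 0.504 and 0 normalised reads at generation 10 in BC187, against 14.4, 21.3 and 24.6 at generation 0, while BY4743 had 304, 423 and 410, against 298, 305 and 310. YKL091C had log2 fold changes of -6.67 in BC187 and -0.11 in BY4743, and RPL14B -6.27 and 0.12. Mean levels at generation 0 in BC187 were 20.1, 34.2 and 7.18 normalised reads for AMD1, YKL091C and RPL14B, against 304, 255 and 52.8 in BY4743.

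**Figure D5:**
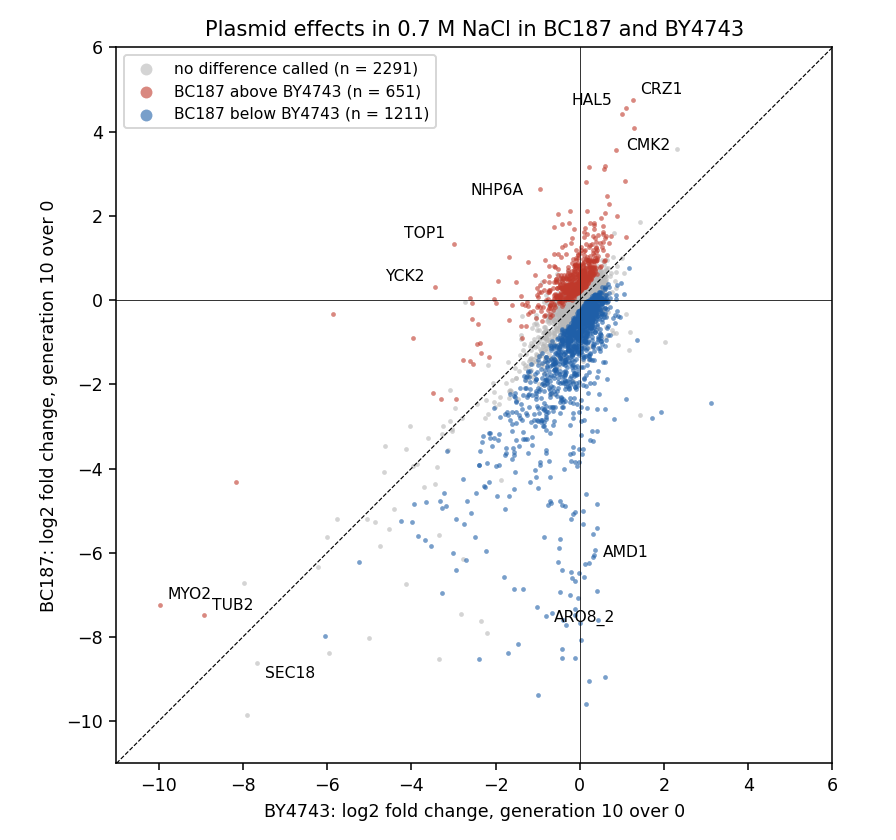
Log2 fold changes of 4153 rows tested in both strains, BC187 on the y axis and BY4743 on the x axis, with the dashed line at equality. Red and blue points differ between the strains at an FDR under 0.05, with BC187 above or below, and grey points do not pass. CRZ1, HAL5 and CMK2 lie far above the line, SEC18 lies near it at the lower left with TUB2 and MYO2 above it, and a column of blue points around AMD1 and ARO8_2, the second row of ARO8, marks rows lost from BC187 with smaller or no change in BY4743.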

How the data were processed

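Plasmids were isolated from each aliquot, and their barcodes were amplified by PCR with indexed primers and sequenced as single-end reads. What the authors deposited are raw counts of reads for each barcode, with no normalisation. The tool that assigned reads to barcodes is not given in the sources used here. Columns were matched to samples by title, and 0 columns were left over. Rows are called by gene, and of 4817 genes 4811 matched RefSeq R64 by systematic name.

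The library size was the reads over rows above 50000 reads in no sample, after the study's approach, so that 25 rows were kept in the tests but not in the total. BC187 generation 10 was tested against generation 0 with edgeR 4.0.16 (R 4.3.3, glmQLFit and glmQLFTest) on the 6 libraries after filterByExpr with a minimum count of 10. FDR is the Benjamini-Hochberg value over all tested rows and is called under 0.05. SE is the absolute log2 fold change over the square root of F. The strain difference is the contrast of generation effects in 12 libraries. Replicate scores used a pseudocount of 1 normalised read. Folds of rows with few reads carry exact 95% intervals, and rows at 0 a bound at 3 reads. Scripts were tested on simulated data. Python 3.11.15 and scipy 1.17.1 were used.

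Named genes were the 12 largest rises and 12 largest falls whose groups did not overlap, falls only among rows with over 3 reads in some generation 10 library; the 10 rows with the most starting reads among those reduced to at most 3; up to 3 called members each way per list; 9 genes the study names; pairs of rows that differed or moved most; and the 6 largest strain differences each way. The members and the 34 gene lists were chosen with earlier results of these data known. CKA2, CKB1, CNB1, ECM7, FPS1, HOG1, MSN4, PAB1, PFY1, PMR1, PRR1, PUF3, RPL14A, RPS0B, SIS1, SSB1, SSE1, TUB3 and VCX1 fell outside this rule and were chosen after their values were seen. Alternatives were other scalings, DESeq2, other filters, a replicate block, a joint fit, a test against a 1.5-fold change and leaving out each library.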

Additional observations from a re-analysis of the deposited data

Results flagged for a closer look

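The results below drew attention because the effect in BC187 differed from that in BY4743 by a test of the difference itself. Values are log2 fold changes of generation 10 over generation 0, with the fitted difference, BC187 minus BY4743, after them.

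More positive in BC187 were TOP1, DNA topoisomerase I, at 1.34 in BC187 and -2.98 in BY4743 (4.21), the kinase FMP48 at -4.33 and -8.16 (3.83), the casein kinase 1 gene YCK2 at 0.31 and -3.43 (3.66), NHP6A at 2.63 and -0.94 (3.57), CRZ1 at 4.75 and 1.26 (3.50), HAL5 at 4.55 and 1.09 (3.45), ECM27 at 4.42 and 1.01 (3.41), URA5 at 4.08 and 1.30 (2.79), CMK2 at 3.57 and 0.86 (2.72), MYO2 at -7.23 and -9.97 (2.75) and TUB2 at -7.49 and -8.92 (1.44). TOP1 had 194, 266 and 239 normalised reads at generation 10 in BC187, against 91.2, 94 and 90.7 at generation 0, while BY4743 had 0.0836, 0.167 and 4.46, against 17, 12.4 and 10.7. The BC187 libraries of TOP1 were close together, those of BY4743 at generation 10 were not, and the fall in BY4743 alone did not pass (FDR 0.0603).

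More negative in BC187 were ARO8_2 at -7.5 in BC187 and -0.80 in BY4743 (-6.70), YKL091C at -6.67 and -0.11 (-6.57), AMD1 at -6.11 and 0.32 (-6.44), RPL14B at -6.27 and 0.12 (-6.38), the acetyltransferase relative YJL218W at -5.93 and 0.36 (-6.32), ATP25, a mitochondrial protein, at -2.44 and 3.11 (-5.55), RSP5 at -6.95 and -3.28 (-3.66) and CDC14 at -7.98 and -6.06 (-1.92). ATP25 rests on uneven libraries. It had 8.31, 24.4 and 1.86 normalised reads at generation 10 in BC187, against 1.15, 18.4 and 166 at generation 0, and neither strain alone passed. Its difference had an FDR of 0.0327, and without generation 0 replicate 3 of BC187 the difference was -2.93 (FDR 0.178). It also missed the threshold without generation 10 replicate 1 or 3 of BC187, generation 10 replicate 2 or 3 of BY4743, or generation 0 replicate 1 or 2 of BY4743 (FDR 0.0522 to 0.0785), with a replicate block (-3.44, FDR 0.283) or in the fit of all 24 libraries (FDR 0.563). In the fit of all 24 libraries the differences of TOP1 (FDR 0.296), FMP48 (0.395), YCK2 (0.0864), CRZ1 (0.0662), MYO2 (0.353), TUB2 (1), RSP5 (0.0694) and CDC14 (0.852) did not pass either. The difference of TUB2 also did not pass without generation 10 replicate 1 or 2 of BC187.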

How the results depend on the processing

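The counts of rows higher and lower in BC187 and of strain differences stayed within 1.5 times of those given under each alternative except 2. In the fit of all 24 libraries BC187 had 48 rows higher and 334 lower (44 and 332 at 2-fold), and the strain difference 9 and 43 (9 and 43 at 2-fold). The joint fit estimates 1 spread over all 4 strains. The test against a 1.5-fold change called 163 higher and 839 lower. Leaving out 1 library gave 971 to 1141 rows higher and 1421 to 1564 lower. Of 212 named genes 120 lost their BC187 call in the 24-library fit, and 14 lost it when some library was left out. Named strain differences were a separate set, in which that fit lost the call of CRZ1 (FDR 0.0662) among others. RPL14B had a log2 fold change of -9.86 without generation 10 replicate 1, the only one with reads. No named gene changed direction past the threshold, and 9 recomputed list medians near 0 changed sign. Same-numbered libraries did not deviate together (r 0.024, -0.178 and -0.417), so the numbers were not taken to pair the samples, and a replicate block called 1101 higher and 1521 lower. Not every library correlated best with its own number. Rows under a few normalised reads limit what a fall can show, since 3 reads equal 0.17 to 0.216 normalised reads at generation 10.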
